A study of Homo sapiens with 12 samples.

Results

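The OECM1 invasion subline was compared with the OECM1 parent cells it came from. OECM1 is an established squamous carcinoma line of the oral cavity, labelled HNC-OECM1, and the subline holds cells collected after invasion through Matrigel, a basement membrane extract. The comparison used the 4 arrays whose titles name OECM1, 2 of the subline and 2 of the parent, out of 12 arrays in the series. The other 8 arrays came from the lines labelled Fadu and Detroit, each also with an invasion subline and its parent, 2 arrays per group. No agent or genetic change is named for any group. The number of passages, and whether the subline is a clone or a pool, are not given in the sources used here, nor whether the 2 samples of a group were grown separately. The p-values thus cover the spread of these samples alone, which can be of technical origin.

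Carcinoma cells that invade often keep epithelial junctions while they gain mesenchymal proteins, a state called partial epithelial to mesenchymal transition (EMT). In head and neck squamous carcinoma, vimentin (VIM) and podoplanin (PDPN) are known from cells at the invading edge. Such cells also remodel basement membrane with proteases, and they secrete growth factors and chemokines that act on neighbouring cells.

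Levels are given as log2 RMA values, on which a difference of 1 is a change of 2-fold, with replicate 1 before replicate 2 of each group. Each gene was represented by 1 probe set, and 8992 genes passed a filter on dim signals, set at a log2 value of 4.52. Log2 fold changes are those of the subline over the parent, and their standard errors (SE) come from 1 limma fit of the 12 arrays. A gene was said not to overlap where both subline arrays lay above, or both below, both parent arrays, and the gap is the distance between the nearest arrays of the groups.

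The 4 arrays kept to their labelled line but not to their duplicates. Across the tested genes they correlated with each other at r = 0.901 to 0.966 and with the 8 other arrays at r = 0.803 to 0.884; genes are not independent replicates. The closest of all pairs among the 4 was subline replicate 2 with parent replicate 1, at a root mean square log2 difference of 0.442, while the subline duplicates differed by 0.504 and the parent duplicates by 0.750. The ACTB control ratio, the 3 prime minus the 5 prime probe set on the log2 scale, which reflects RNA integrity and labelling, was 0.06 and 0.63 in the subline, against 0.87 and 0.04 in the parent. The same pair of arrays thus had the high ratios. With this ratio as a covariate, limma called 0 genes between the OECM1 groups, as it did without it. At an unadjusted limma p under 0.05 there were 499 genes with the covariate and 300 without. The part of the ratio in the results was not tested further. At most 1 of the 8992 values was identical within any pair, so no 2 of these arrays were copies of each other. Among the other lines, subline replicates labelled Detroit correlated best with a Fadu parent array, at r = 0.956 and r = 0.905, and with the parent arrays labelled Detroit at r = 0.797 to 0.887. Their label was not settled here.

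Squamous epithelial markers were present in both groups and stromal markers were mostly dim. Of 7 squamous markers on the array, 6 lay above the dim limit in all 4 arrays, and their summed log2 levels were 57.4 to 58.7 in the subline and 59.6 to 60.1 in the parent. CDH1, the epithelial cadherin, had 9.82 and 9.75 in the subline, against 9.83 and 9.75 in the parent. Not all of these markers were level. KRT5 had 4.87 and 6.23 in the subline, against 6.97 and 8.18 in the parent. CDH3 went the other way, with 10.60 and 9.84 in the subline, against 9.55 and 9.43 in the parent. KRT14, with 4.01 and 3.90 in the subline, against 3.90 and 4.94 in the parent, was not above the limit in all 4 arrays. SFN, DSG3 and EPCAM overlapped. The sums over 10 fibroblast markers were 41.3 to 43.4 in the subline and 40.5 to 44.8 in the parent, over 9 endothelial markers 36.9 to 38.3 in the subline and 37.9 to 39.2 in the parent, and over 10 leukocyte markers 42.1 to 43.8 in the subline and 40.6 to 43.7 in the parent. Of these markers, 4 fibroblast, 6 endothelial and 6 leukocyte markers lay below the dim limit in all 4 arrays, among them POSTN, LUM, CDH5 and LYZ. Above it in all 4 arrays lay 2 of each list, namely COL1A1 and PDGFRA, ENG and CLDN5, and CD3D and ITGB2. In bulk samples, fewer cells that express a gene and less RNA of it per cell cannot be told apart.

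Which genes accompany selection for invasion in OECM1 was asked first. VIM, PXDN and PDPN, 3 genes of the mesenchymal side of partial EMT, were higher in both subline arrays than in either parent array. These 3 were chosen as markers with results of these arrays known, so their direction is a description and no test. The neutrophil chemokine genes CXCL2 and CXCL8, named for their wide gaps, were lower. No gene passed the test: limma called 0 of 8992 genes (0.0%) at a Benjamini-Hochberg adjusted p under 0.05, and the smallest adjusted p was 0.234. At an unadjusted p under 0.05 there were 300 genes (3.34%), 172 higher and 128 lower, where 449.6 would lie by chance. Of these, 292 did not overlap. In all, 1210 genes (13.5%) lay higher and 1042 (11.6%) lower without overlap, together 2252 genes (25.0%). Groups this small can lie apart by chance in many genes. No chance count was computed for this rule, so these counts are descriptions and not evidence of a difference between the groups. The gap exceeded 1 in 31 of the higher and 9 of the lower genes. The median log2 fold change over all tested genes was 0.01, and the median SE was 0.351.

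VIM, the intermediate filament protein of mesenchymal cells, had log2 levels of 10.12 and 10.08 in the subline, against 8.13 and 6.45 in the parent. The subline arrays were nearly equal and the parent arrays lay apart, with a gap of 1.95 between the groups. Its mean was 7.01-fold higher in the subline (log2 fold change 2.81, SE 0.490, limma adjusted p = 0.247). PXDN, peroxidasin, which crosslinks collagen IV in basement membrane, had 8.47 and 7.96 in the subline, against 6.84 and 5.03 in the parent (log2 fold change 2.28, SE 0.502, limma adjusted p = 0.416). Its second probe set gave 1.84. PDPN, a membrane glycoprotein that binds the platelet receptor CLEC-2 and links to the actin cortex, had 7.11 and 6.61 in the subline, against 5.66 and 4.59 in the parent (log2 fold change 1.74, SE 0.372, limma adjusted p = 0.391). For PDPN the other probe sets gave log2 fold changes of 0.59 and 0.02, and the mean of its probe sets 0.78. All 3 genes were lowest in parent replicate 2. With parent replicate 1 left out, VIM and PXDN passed the test at log2 fold changes of 3.65 and 3.18 (limma adjusted p = 0.0279 for each). With parent replicate 2 left out, the log2 fold changes were 1.97 for VIM, 1.38 for PXDN and 1.20 for PDPN, and none passed.

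**Figure D1:**
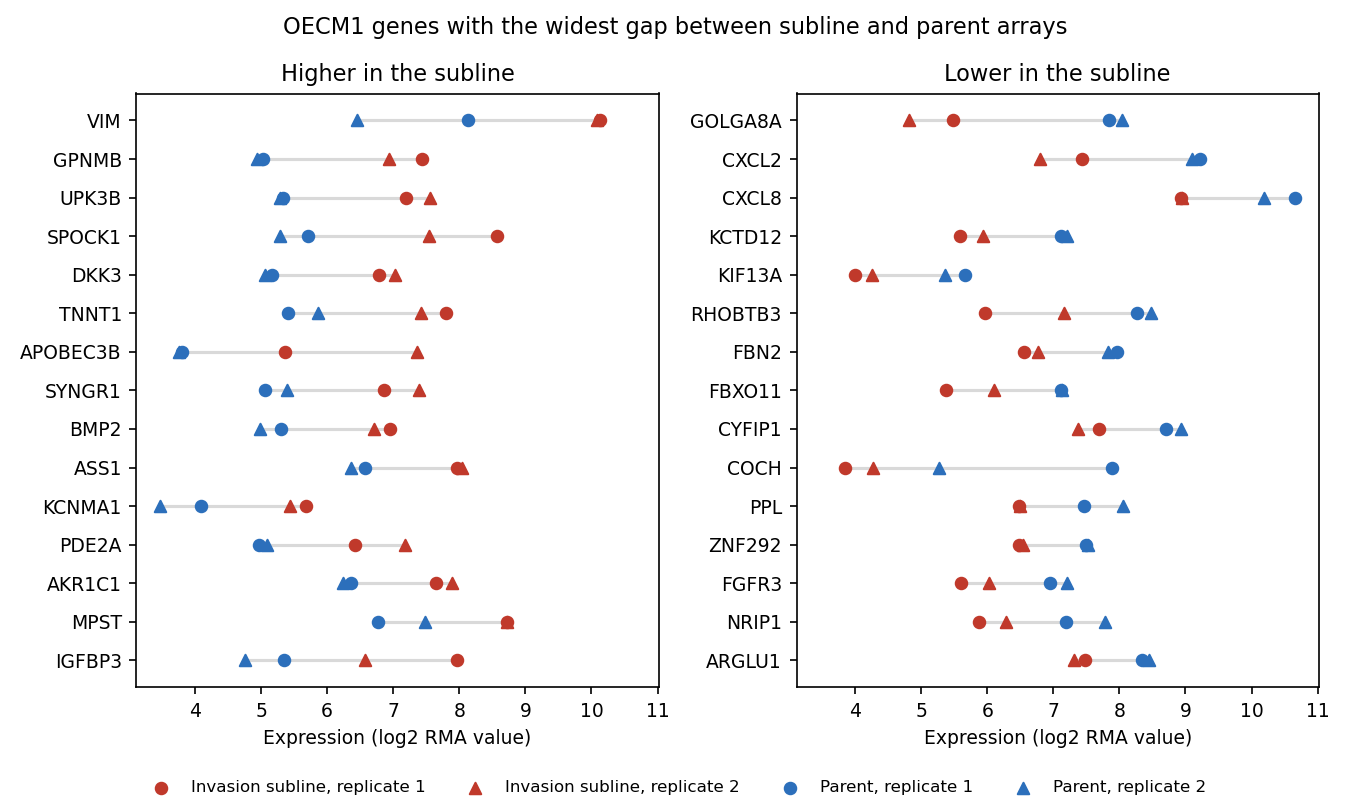
Log2 RMA values (horizontal axis) of the 15 genes with the widest gap in each direction, in the 2 subline arrays (red) and the 2 parent arrays (blue), circles for replicate 1 and triangles for replicate 2. The groups do not overlap for any gene shown, since the genes were chosen for that, and the gaps run to 1.95 for VIM and to -2.36 for GOLGA8A.

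Several of the genes with the widest gaps encode secreted or surface proteins. SPOCK1, a secreted proteoglycan of the testican family, had 8.58 and 7.54 in the subline, against 5.72 and 5.29 in the parent (log2 fold change 2.55, SE 0.527). GPNMB, a transmembrane glycoprotein, had 7.44 and 6.94 in the subline, against 5.02 and 4.94 in the parent (log2 fold change 2.21). IGFBP3, which binds insulin-like growth factors in the medium, had 7.97 and 6.58 in the subline, against 5.35 and 4.77 in the parent (log2 fold change 2.21), and its second probe set gave 1.38. For SPOCK1, GPNMB and IGFBP3, and for DKK3 and UPK3B below, the subline arrays differed from each other by more than the parent arrays did. BMP2, a bone morphogenetic protein, had 6.96 and 6.71 in the subline, against 5.30 and 4.99 in the parent (log2 fold change 1.68), and its second probe set gave 0.69. DKK3, a secreted protein of the Dickkopf family, had 6.78 and 7.03 in the subline, against 5.17 and 5.06 in the parent (log2 fold change 1.79), while its other probe sets gave -0.01 to 0.65. UPK3B, a uroplakin, had 7.19 and 7.56 in the subline, against 5.33 and 5.29 in the parent (log2 fold change 2.07).

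Enzymes, a channel, a contractile protein and a vesicle protein were also among the higher genes with the widest gaps. KCNMA1, the pore subunit of a calcium-activated potassium channel, had 5.68 and 5.44 in the subline and lay below the dim limit in the parent, at 4.10 and 3.48 (log2 fold change 1.77). It passed the filter through the subline arrays alone, and its other probe sets gave 0.05 and 1.06. PDE2A, a phosphodiesterase of cyclic nucleotides, had 6.42 and 7.17 in the subline, against 4.97 and 5.10 in the parent (log2 fold change 1.76, SE 0.281, limma adjusted p = 0.234). KCNMA1 had the same adjusted p, and these were the smallest of the comparison. APOBEC3B, a DNA cytosine deaminase, had 5.36 and 7.37 in the subline, against 3.81 and 3.77 in the parent, where both arrays were dim (log2 fold change 2.58). Without subline replicate 1 it passed the test (log2 fold change 3.58, limma adjusted p = 0.0421). ASS1, the argininosuccinate synthase of arginine synthesis, had 7.96 and 8.05 in the subline, against 6.58 and 6.36 in the parent. AKR1C1, an aldo-keto reductase, had 7.64 and 7.88 in the subline, against 6.36 and 6.24 in the parent. For both enzymes the OECM1 duplicates lay close together, but the spread pooled over 6 groups was wide, with log2 fold changes of 1.54 and 1.46 and SEs of 0.682 and 0.816. TNNT1, the slow skeletal troponin T, had a log2 fold change of 1.97, SYNGR1, a synaptic vesicle protein, 1.90, and MPST, a sulfurtransferase of cysteine breakdown, 1.60. The other probe sets of SYNGR1 gave 0.56 and 0.46, and those of AKR1C1 gave 1.05 and 0.03.

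Leaving out 1 parent array brought in genes that the full comparison did not call. Without parent replicate 1, limma called ADGRG2, PROCR, SPP1 and SRPX besides VIM and PXDN, all 6 higher. ADGRG2, an adhesion G protein-coupled receptor, had 8.12 and 7.03 in the subline, against 6.05 and 4.26 in the parent. SPP1, osteopontin, had 8.12 and 7.67 in the subline, against 7.39 and 5.52 in the parent. PROCR, the endothelial protein C receptor, had 8.79 and 8.82 in the subline, against 8.19 and 6.54 in the parent. SRPX, a sushi repeat protein, had 7.81 and 7.33 in the subline, against 7.13 and 4.89 in the parent. As for VIM, the value in parent replicate 2 was the lowest of the 4 for each. TLL2, a tolloid-like metalloprotease, passed without subline replicate 1 (log2 fold change 2.69, limma adjusted p = 0.0421), but its other probe sets gave 0.04 and 0.10 over all 4 arrays. These 5 genes were chosen after their values were seen.

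The lower genes included 2 chemokines. CXCL2, a ligand of the receptor CXCR2 that draws neutrophils, had 7.43 and 6.80 in the subline, against 9.22 and 9.09 in the parent (log2 fold change -2.04, SE 0.473, limma adjusted p = 0.450). CXCL8, interleukin 8, which acts on CXCR1 and CXCR2, had 8.93 and 8.95 in the subline, against 10.66 and 10.19 in the parent (log2 fold change -1.48, SE 0.493, limma adjusted p = 0.979). Its second probe set gave -1.55. Their mean levels were 4.12-fold and 2.79-fold lower in the subline. CXCL1, a further CXCR2 ligand chosen after its values were seen, had 6.54 and 7.26 in the subline, against 10.41 and 7.45 in the parent. Its log2 fold change of -2.03 was -0.55 without parent replicate 1. CXCL3, also chosen after its values were seen, overlapped, at 4.57 and 4.36 in the subline and 5.49 and 4.34 in the parent.

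These chemokine genes lie in 1 cluster on chromosome 4, and the promoters of the 3 that lay lower without overlap are shown because they share a run of letters of the kind bound by NF-kB, the main transcription factor of inflammatory genes. The sequences are RefSeq windows on GRCh38.p14, from 250 bases before to 50 after the transcript start, written 5′ to 3′ on the strand of the gene, with the motif GGAATTTCC in capitals.
CXCL1 (chr4:73869143-73869442, + strand): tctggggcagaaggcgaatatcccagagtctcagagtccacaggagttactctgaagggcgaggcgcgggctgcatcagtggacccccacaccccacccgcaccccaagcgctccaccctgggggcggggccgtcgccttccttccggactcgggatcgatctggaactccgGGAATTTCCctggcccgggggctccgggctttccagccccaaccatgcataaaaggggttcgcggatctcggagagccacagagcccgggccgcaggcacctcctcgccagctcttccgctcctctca
CXCL2 (chr4:74099146-74099445, - strand): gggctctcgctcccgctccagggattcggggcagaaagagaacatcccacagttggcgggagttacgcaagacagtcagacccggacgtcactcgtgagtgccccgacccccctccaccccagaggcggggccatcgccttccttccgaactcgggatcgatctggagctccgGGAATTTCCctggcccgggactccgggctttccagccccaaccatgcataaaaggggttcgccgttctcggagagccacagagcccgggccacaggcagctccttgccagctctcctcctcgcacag
CXCL8 (chr4:73740319-73740618, + strand): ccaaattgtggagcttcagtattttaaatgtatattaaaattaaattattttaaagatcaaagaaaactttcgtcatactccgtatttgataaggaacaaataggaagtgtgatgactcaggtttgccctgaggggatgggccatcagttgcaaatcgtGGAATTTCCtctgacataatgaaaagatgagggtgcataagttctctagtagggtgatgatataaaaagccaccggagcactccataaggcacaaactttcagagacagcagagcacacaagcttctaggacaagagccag
The motif begins 78, 77 and 91 bases before the start of CXCL1, CXCL2 and CXCL8. Searched on both strands, with no other motif searched, it was found in 0.461% of 35116 promoter windows. The windows of CXCL3, which overlapped between the groups, and of CXCL5 hold it too. Those of IL1A, which lay lower, and of PTGS2, which lay higher, do not. A match is a description of these letters only.

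**Figure D2:**
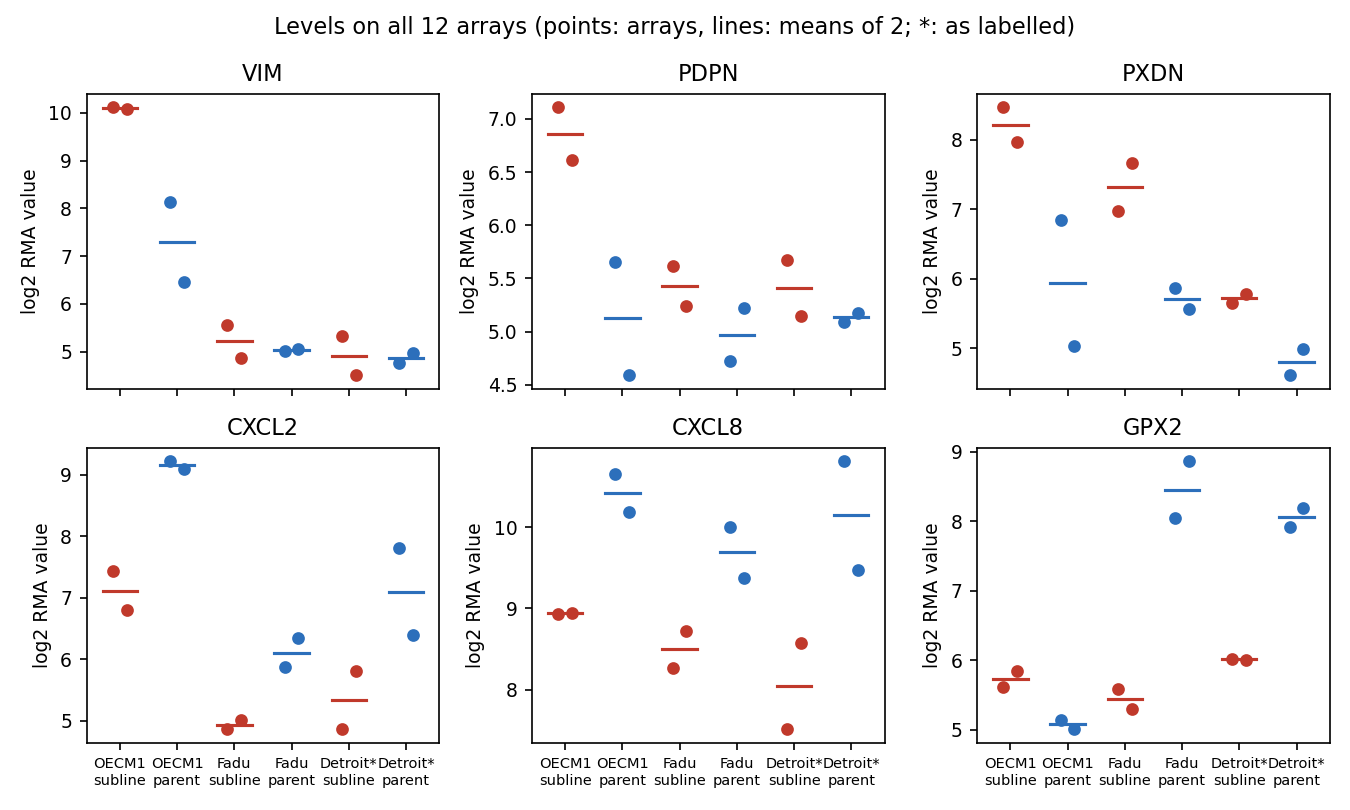
Log2 RMA values (vertical axes, each panel with its own scale) of 6 genes on all 12 arrays, sublines in red left of their parents in blue, with points for arrays and lines for means of 2. VIM reached 10.12 and 10.08 in the OECM1 subline and stayed at or below 5.56 in the arrays of the other lines, while CXCL2 and CXCL8 lay lower in the subline of each line as labelled.

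The other lower genes had mixed roles. GOLGA8A, a member of the golgin family, had the widest gap of all, at 5.48 and 4.81 in the subline, against 7.85 and 8.04 in the parent (log2 fold change -2.80, SE 0.524, limma adjusted p = 0.317), but its second probe set gave -0.31. RHOBTB3 had 5.96 and 7.16 in the subline, against 8.26 and 8.48 in the parent (log2 fold change -1.81), with -0.72, -1.97 and -2.39 in its other probe sets. KCTD12 had 5.59 and 5.94 in the subline, against 7.12 and 7.20 in the parent (log2 fold change -1.40), and -2.26 in its second probe set. COCH, cochlin, lay below the dim limit in the subline, at 3.85 and 4.28, against 7.88 and 5.26 in the parent. The parent arrays of COCH differed from each other by more than the gap of -0.99 between the groups. PPL, periplakin, which ties keratin to desmosomes, had 6.49 and 6.50 in the subline, against 7.47 and 8.06 in the parent (log2 fold change -1.27). FGFR3, a fibroblast growth factor receptor, had 5.61 and 6.03 in the subline, against 6.95 and 7.21 in the parent, while its second probe set gave -0.22. The kinesin gene KIF13A, which passed the filter through the parent arrays alone, had a log2 fold change of -1.39, the nuclear receptor corepressor gene NRIP1 -1.41, the actin regulator gene CYFIP1 -1.29, the fibrillin gene FBN2 -1.23, FBXO11 -1.39, ARGLU1 -1.0 and ZNF292 -1.0. Second probe sets of FBN2, FBXO11 and ZNF292 gave values no further from 0 than -0.46.

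Gene lists were then described by their counts. With 0 genes called, each count is of tested members that did not overlap, to be read against 13.5% higher and 11.6% lower over all tested genes, and medians against 0.01. Of 20 partial EMT and mesenchymal genes, 9 lay higher and 1 lower, with a median log2 fold change of 0.42. Besides VIM, PXDN and PDPN, these included ITGA5, the fibronectin receptor subunit, at 0.74, TGFBI, a matrix adhesion protein, at 0.84, LOX, lysyl oxidase, at 0.67 (0.08 and 0.81 in its other probe sets), and the transcription factors SNAI2 at 0.42 and TWIST1 at 0.30. TNC, tenascin C, was the lower one, at -0.27, and FN1, fibronectin, overlapped at 0.43. This list and its 3 markers were chosen with results of these arrays known.

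Epithelial lists lay closer to the background. Of 19 cadherin, desmosome and tight junction genes, 3 lay higher (5 with the mean of all probe sets) and 2 lower, with a median of 0.06. DSP, desmoplakin, had 8.65 and 8.88 in the subline, against 9.97 and 9.39 in the parent. CDH3, placental cadherin, had 10.60 and 9.84 in the subline, against 9.55 and 9.43 in the parent. CLDN4 lay higher (0.62) and CLDN7 lower (-0.39). Of 12 keratins, 3 lay higher and 1 lower. KRT19, a keratin of simple and basal epithelia, had 7.71 and 8.59 in the subline, against 5.77 and 6.94 in the parent. KRT5, the basal keratin, had 4.87 and 6.23 in the subline, against 6.97 and 8.18 in the parent. The log2 fold changes were 1.80 for KRT19 and -2.02 for KRT5, and neither passed (limma adjusted p = 0.979 and 0.923). Of 17 squamous differentiation genes, 2 lay higher (6 of 23 with no filter) and 3 lower, and the median of -0.00069 turned to 0.000985 with arrays centred on their medians. SLPI, a secreted inhibitor of leukocyte elastase, had 8.90 and 9.16 in the subline, against 7.74 and 5.79 in the parent.

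Proteases, matrix and motility genes came next. Of 26 matrix proteases and inhibitors, 10 lay higher and 2 lower, with a median of 0.43, which was 0.28 with the mean of all probe sets. CTSL, cathepsin L, had a log2 fold change of 1.25, TIMP2, a metalloprotease inhibitor, 0.89, PLAT, tissue plasminogen activator, 0.84, CTSD, cathepsin D, 0.74, and the membrane protease gene MMP14 0.56. MMP2, gelatinase A, lay lower at -1.01. TIMP3 had 0.63, and 1.10 to 1.30 in its other probe sets. Both proteases and their inhibitors were thus among the 10. Of 20 collagens and other matrix genes, 3 lay higher and 2 lower, with PXDN, AGRN (0.49) and COL4A1 (-0.42) as examples. With the mean of all probe sets of a gene, 8 of the 20 lay higher and 2 lower. Of 9 integrin subunits, ITGA5 and ITGB5 (0.21) lay higher. Of 30 actin and motility genes, 6 lay higher and 3 lower. RHOB, a small GTPase of endosomes, had 8.17 and 8.51 in the subline, against 7.31 and 7.29 in the parent (log2 fold change 1.04). MYL9, the regulatory light chain of smooth muscle myosin, had 7.21 and 8.03 in the subline, against 6.38 and 6.07 in the parent (log2 fold change 1.39). ARPC2, a subunit of the actin-branching complex, lay lower (-0.64).

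Signalling lists differed in their counts. Of 19 IGF axis and growth factor genes, 7 lay higher and 1 lower, with a median of 0.58, which was 0.23 with the mean of all probe sets and 0.39 with no filter. Besides IGFBP3 and BMP2 they held FGF2, basic fibroblast growth factor, with 7.75 and 6.26 in the subline, against 5.28 and 5.24 in the parent, while its second probe set gave 0.20. The others were PDGFA (1.29), IGFBP6 (1.01), IGF1R (0.69) and BMP4 (0.64). Of 23 NF-kB and inflammatory cytokine genes, 4 lay higher and 4 lower. IL1A, chosen after its values were seen, lay lower with CXCL1, CXCL2 and CXCL8, with a gap of only -0.028. PTGS2, the inducible cyclooxygenase, lay on the other side, at 10.12 and 8.74 in the subline, against 7.75 and 6.64 in the parent (log2 fold change 2.23, limma adjusted p = 1.00), with LIF, a cytokine of the interleukin 6 family, at 0.60.

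Among TGF-beta response genes, 4 of 18 lay higher and 1 lower. TGFB1 had 7.31 and 8.43 in the subline, against 6.99 and 6.10 in the parent, while its second probe set gave -0.14. ID3, an inhibitor of bHLH factors, had 6.91 and 7.84 in the subline, against 8.43 and 8.71 in the parent. Of 18 immediate early genes, 6 lay higher and 0 lower. With centred arrays 6 lay higher and 1 lower, and with quantile normalization 5 higher and 1 lower. DUSP1, a phosphatase of MAP kinases, had 9.89 and 8.93 in the subline, against 7.39 and 7.76 in the parent (log2 fold change 1.83, limma adjusted p = 0.979). NR4A1, an orphan nuclear receptor, had 7.08 and 6.52 in the subline, against 5.37 and 5.30 in the parent (log2 fold change 1.47), while its other probe sets gave 0.31 and 0.41. FOSL1, an AP-1 subunit, was at 1.29 and KLF4 at 1.08. Second probe sets gave 0.98 for DUSP1 and 0.25 for KLF4. FOS, FOSB and JUN overlapped, at -0.06, -0.0012 and -0.10. Of 17 YAP and TEAD targets, IGFBP3, FOSL1 and LIF lay higher and 0 lower. In the list of 17 EGFR family genes and ligands, 2 lay higher, ERBB2 and EREG, by gaps of 0.051 and 0.011. EREG lay below the dim limit in all 4 arrays. The 1 lower member was FGFR3, a fibroblast growth factor receptor and not of the EGFR family. With the mean of all probe sets, 5 of the 17 lay higher and 2 lower.

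Of 20 basal stem and lineage factor genes, 8 lay higher and 3 lower, with a median of 0.15, and with centred arrays 1 lay lower. HES1, a target of Notch signalling, had 7.09 and 7.03 in the subline, against 6.23 and 5.76 in the parent, but its other probe sets gave -0.21 and 0.35. CD44, the hyaluronan receptor, had 12.11 and 11.59 in the subline, against 11.06 and 10.15 in the parent. ALDH1A3, a retinaldehyde dehydrogenase, had 11.11 and 10.32 in the subline, against 9.72 and 9.86 in the parent. JAG1, a Notch ligand, had 10.55 and 9.87 in the subline, against 9.19 and 9.41 in the parent. For CD44, ALDH1A3 and JAG1 the log2 fold changes were 1.24, 0.92 and 0.91, and no array of one group reached the other. Of 7 other CD44 probe sets, 6 were positive, up to 1.39, and 1 gave -0.30. JAG1 had 0.14 to 1.32 in its other probe sets.

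**Figure D3:**
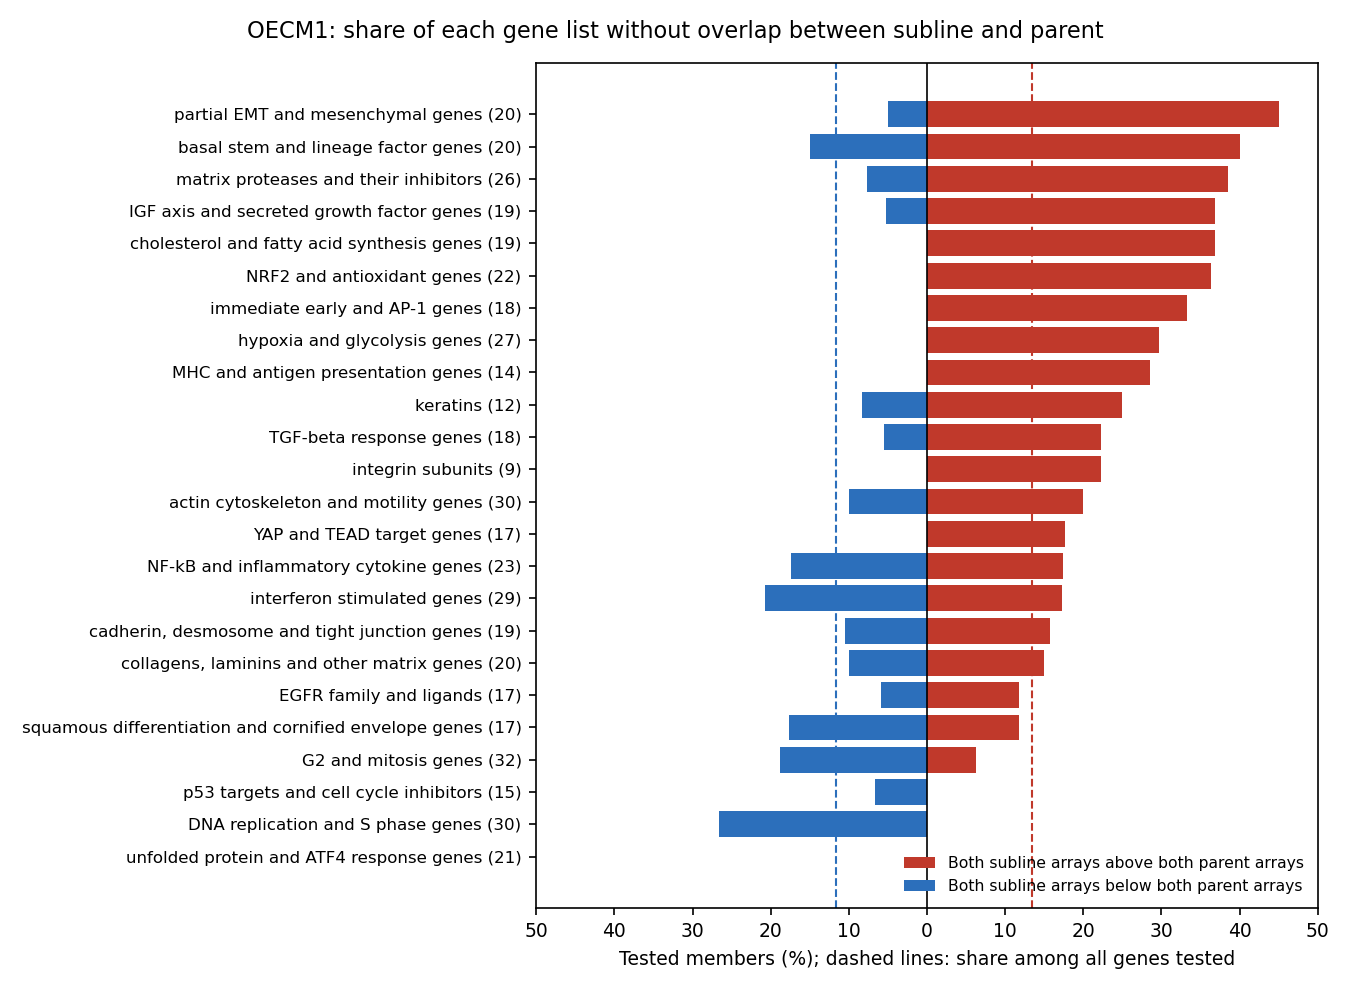
Share of tested members (horizontal axis, in percent, number tested in brackets) that lay higher (red, right) or lower (blue, left) in both subline arrays than in both parent arrays, for the lists with 9 or more tested members. Dashed lines mark the shares over all tested genes, 13.5% and 11.6%. Partial EMT genes had the longest bar to the right, 9 of 20, and S phase genes the longest to the left, 8 of 30. The lists were chosen with earlier results of these data known, and the 9 include the markers VIM, PDPN and PXDN.

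In 4 further lists every member without overlap lay higher in the subline, although for hypoxia and glycolysis genes this depended on the scaling. Of 22 NRF2 and antioxidant genes, 8 lay higher and 0 lower, with a median of 0.25. AKR1C2, at 6.36 and 7.23 in the subline, against 5.51 and 5.76 in the parent, resembles AKR1C1 in sequence, so the probe sets of both can share signal. GPX2, an epithelial glutathione peroxidase, had 5.62 and 5.85 in the subline, against 5.15 and 5.01 in the parent. TXNRD1, thioredoxin reductase, had a log2 fold change of 0.60. Of 19 cholesterol and fatty acid synthesis genes, 7 lay higher and 0 lower, with a median of 0.29, among them FASN, fatty acid synthase (0.75), SCD, a desaturase (0.76), HMGCS1 (0.70) and the regulators SREBF1 (0.38) and SREBF2 (0.47). A second FASN probe set gave -0.41. With centred arrays, and also with quantile normalization, 4 of the 19 lay higher and 0 lower. Of 27 hypoxia and glycolysis genes, 8 lay higher and 0 lower, with NDRG1 at 1.30, ADM, adrenomedullin, at 0.99 and HK1, a hexokinase, at 0.32, while VEGFA (0.25) and SLC2A1 (0.16) overlapped. With centred arrays 8 of these lay higher and 1 lower, and with quantile normalization 7 higher and 3 lower. Of 14 MHC and antigen presentation genes, 4 lay higher and 0 lower. HLA-B had 9.21 and 9.70 in the subline, against 9.07 and 7.48 in the parent. HLA-C had 10.08 and 9.93 in the subline, against 9.56 and 8.12 in the parent. B2M, their light chain, had 11.48 and 11.28 in the subline, against 11.11 and 10.50 in the parent. Each of the 3 was lowest in parent replicate 2. Of 29 interferon stimulated genes, 5 lay higher and 6 lower. The median was 0.03, and -0.0022 with the dim limit at the 60th percentile. On the higher side were IFI6 at 0.94, dim in both parent arrays, and IFITM3 at 0.84, and the lower members had narrower gaps.

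Cell cycle and unfolded protein genes varied between duplicates. Of 30 DNA replication and S phase genes, 0 lay higher and 8 lower, with a median log2 fold change of -0.46. The mean log2 level of the list was 6.53 and 7.46 in the subline, against 7.66 and 7.12 in the parent, so subline replicate 2 lay above parent replicate 2. Between single arrays the median differences were -1.23 and -0.64 for subline replicate 1 minus parent replicates 1 and 2, and -0.23 and 0.30 for subline replicate 2. PRIM1, a primase subunit, had 6.16 and 7.17 in the subline, against 7.56 and 7.53 in the parent. ORC6, of the origin recognition complex, had 7.59 and 7.64 in the subline, against 8.36 and 7.96 in the parent. Of 32 G2 and mitosis genes, 2 lay higher and 6 lower, with CENPE, a mitotic kinesin, at -0.89 and CDC20 at 0.44. In the list of 15 p53 targets and cell cycle inhibitors, only CCND2 lay outside, lower with a gap of -0.051. CCND2 is cyclin D2, which is not an inhibitor. With the mean of all probe sets, 1 of the 15 lay higher and 4 lower. Of 21 unfolded protein and ATF4 response genes, 21 overlapped, although the median was 0.65. Their median difference was 1.26 between subline replicate 1 and parent replicate 1, and -0.19 between the replicates 2. HSPA5, the chaperone BiP, had 12.95 and 11.58 in the subline, against 11.68 and 12.26 in the parent.

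Of the stromal lists, 6 tested fibroblast markers overlapped, with COL1A1 at 6.38 and 5.72 in the subline, against 5.82 and 6.18 in the parent. ENG, endoglin, was the 1 of 3 tested endothelial markers that did not, at 5.38 and 5.46 in the subline, against 7.22 and 6.22 in the parent (log2 fold change -1.30, and -0.46 in its second probe set). ITGB2 was the 1 of 6 tested leukocyte markers, higher by a gap of 0.016.

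Genes were also placed in chromosome order from the RefSeq gene table on GRCh38.p14, since neighbouring genes had appeared among the leading genes. The chromosomes and windows named here were chosen after their values were seen, and the shares are descriptions with no test. Among the autosomes, chromosomes 20 and 22 held the largest shares of higher genes, and chromosomes 13 and 6 the largest of lower genes. On chromosome 22, 77 of 264 tested genes (29.2%) lay higher and 7 (2.65%) lower. On chromosome 20, 73 of 267 (27.3%) lay higher and 14 (5.24%) lower. On chromosome 13, 56 of 142 (39.4%) lay lower and 6 (4.23%) higher, and on chromosome 6, 98 of 461 (21.3%) lay lower and 28 (6.07%) higher. The shares over all genes were 13.5% higher and 11.6% lower. With the dim limit raised to the 60th percentile, the leading shares were 33.3%, 31.1%, 42.3% and 24.4% in the same order, and with quantile normalization 26.5%, 28.1%, 41.5% and 21.9%.

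**Figure D4:**
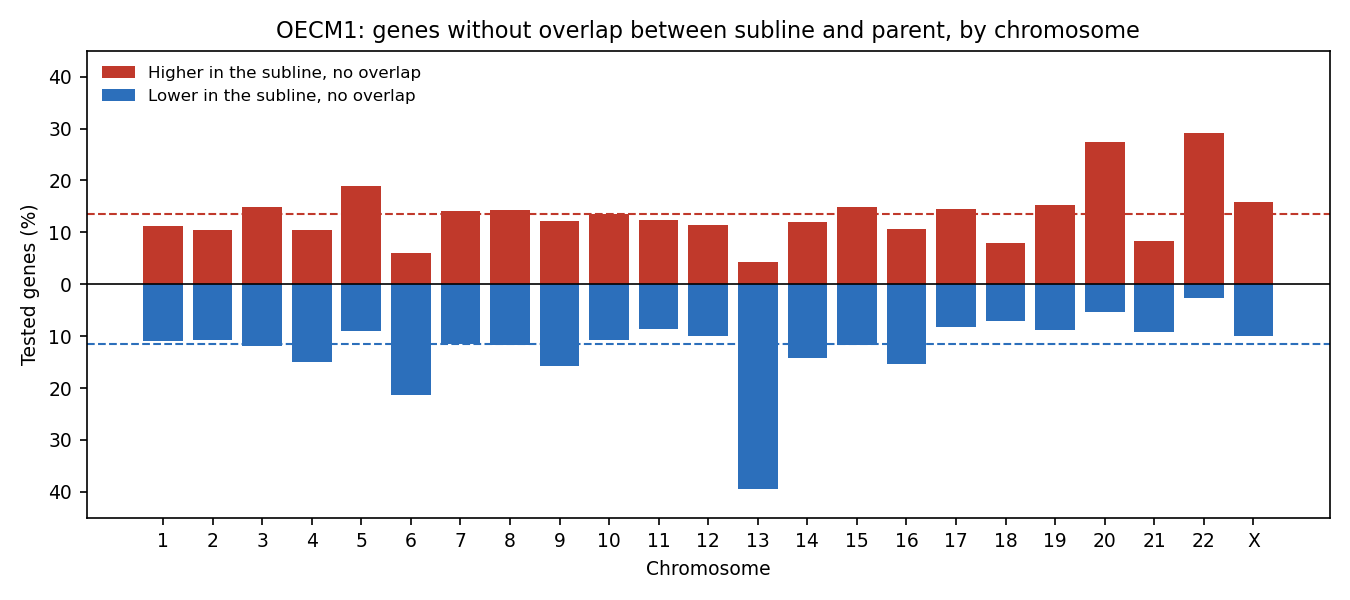
Share of tested genes on each chromosome (vertical axis, in percent) that lay higher (red, above 0) or lower (blue, below 0) in both subline arrays than in both parent arrays, with dashed lines at 13.5% and 11.6% for all genes. The bars of chromosomes 20 and 22 reach 27.3% and 29.2% upward, and that of chromosome 13 reaches 39.4% downward.

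The shifts were small per gene and differed in how many array pairs they held. On chromosome 13 the median log2 fold change was -0.34, and the medians between single arrays were -0.56 and -0.24 for subline replicate 1 minus parent replicates 1 and 2, and -0.34 and -0.11 for subline replicate 2. Chromosome 6 had a median of -0.12, with -0.17 to -0.11 over the 4 array pairs, and chromosome 20 had 0.13, with 0.09 to 0.23. Chromosomes 6, 13 and 20 thus kept 1 direction in all 4 pairs. So did chromosomes 5, 9 and 14, at median log2 fold changes of 0.04, -0.03 and -0.06. The 4 pairs share arrays and are not independent. Chromosome 22 had a median of 0.22, but 0.45 and 0.43 against parent replicate 1 and 0.02 and -0.06 against parent replicate 2. Chromosome 19 showed that order too, with 0.27 and 0.14 against parent replicate 1 and -0.07 and -0.19 against parent replicate 2, at a median of 0.02. In the Fadu subline against its parent, the medians of chromosomes 6, 13, 20 and 22 were -0.07, -0.06, -0.03 and 0.02. In the arrays labelled Detroit they were -0.07, -0.17, -0.04 and -0.02.

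Of the genes with the widest gaps, APOBEC3B, SYNGR1 and MPST lie on chromosome 22. Others there were chosen after their values were seen. TST, a sulfurtransferase, had 6.97 and 8.21 in the subline, against 5.92 and 5.43 in the parent. IFT27, of intraflagellar transport, had 6.06 and 6.90 in the subline, against 4.86 and 4.71 in the parent, and its second probe set had a log2 fold change of 0.18 beside 1.69 in this one. KDELR3, a retrieval receptor of the endoplasmic reticulum, had 7.19 and 7.95 in the subline, against 6.31 and 4.93 in the parent, with 2.41 and 0.53 in its other probe sets. PRR5 (1.28) and MAFF (1.22) also lay higher. In the window of 25 tested genes from MAFF to MIEF1, 13 lay higher and 0 lower, with a median of 0.53. On chromosome 13, KCTD12 and ARGLU1 were joined by 3 genes chosen in the same way. BORA, an activator of Aurora A, had 5.57 and 6.54 in the subline, against 7.32 and 7.46 in the parent. EXOSC8, an exosome subunit, had 6.61 and 6.72 in the subline, against 7.49 and 7.57 in the parent. MTRF1, a mitochondrial release factor, had a log2 fold change of -0.86. In the window from HMGB1 to NAA16, 16 of 25 lay lower and 1 higher, with a median of -0.60 and between -0.77 and -0.17 in the 4 array pairs. On chromosome 20, BMP2, SLPI and MYL9 were joined by RBCK1 (1.58) and the potassium channel subunit gene KCNG1 (1.82), whose second probe sets gave 0.42 and 0.18. On chromosome 6, KIF13A and ZNF292 were joined by the chromatin protein gene DEK, with 7.54 and 8.16 in the subline, against 9.32 and 8.98 in the parent. On chromosome 5, the window from SPDL1 to FGFR4 held 14 higher and 1 lower gene, and the window from CCNH to SRP19 held 0 higher and 14 lower.

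**Figure D5:**
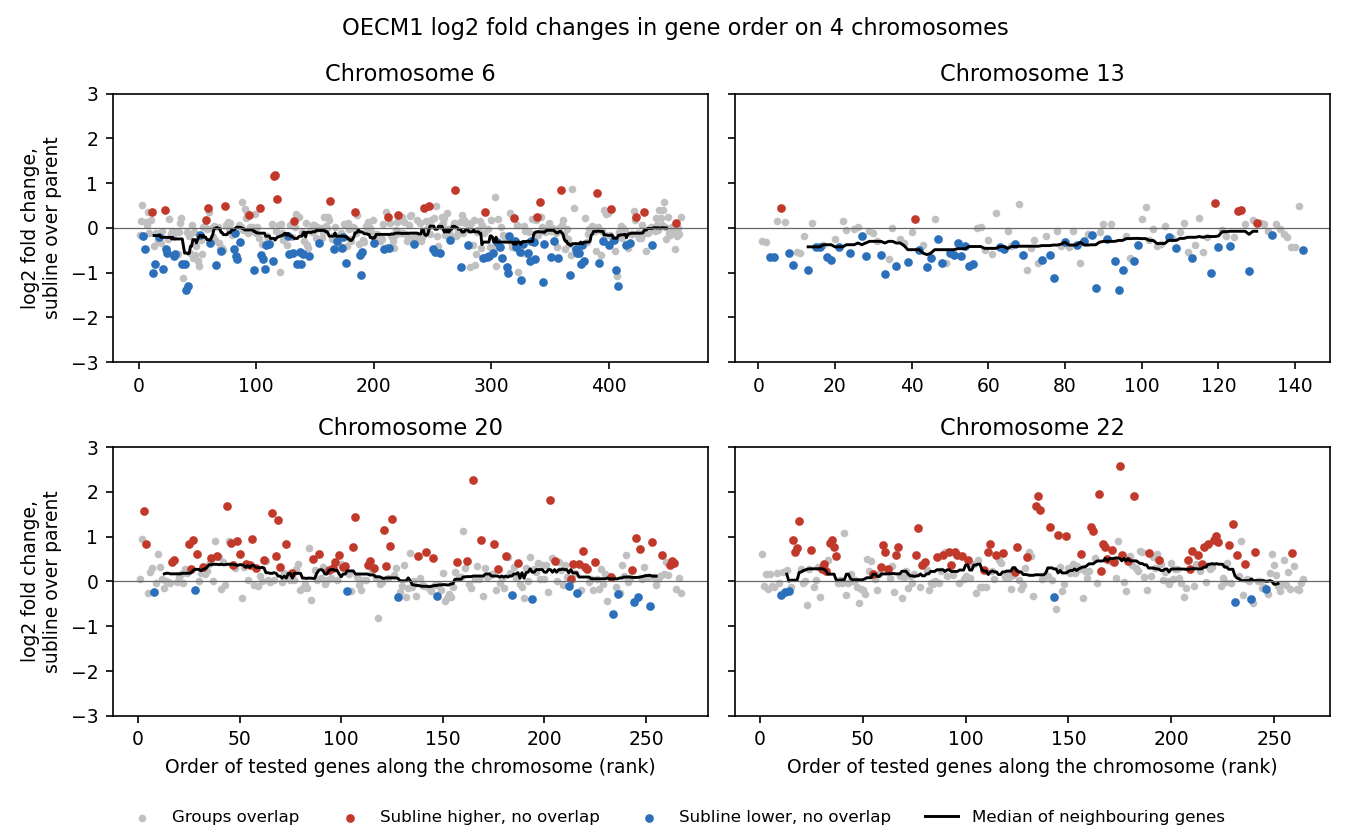
Log2 fold change, subline over parent (vertical axes), of tested genes in their order along chromosomes 6, 13, 20 and 22 (horizontal axes, rank). Red points lay higher and blue points lower without overlap, grey points overlapped, and the black line is the median of 25 neighbouring genes, which reaches -0.60 on chromosome 13 and 0.53 on chromosome 22.

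Whether the OECM1 difference departs from that in Fadu was tested as a difference of the 2 effects in the same fit. Limma called 0 of 8992 genes (0.0%), with 212 at an unadjusted p under 0.05, where 449.6 would lie by chance. The nearest to the threshold was GPX2, with 5.59 and 5.29 in the Fadu subline, against 8.04 and 8.86 in the Fadu parent, where in OECM1 the subline was the higher. The OECM1 effect exceeded the Fadu effect by 3.67 on the log2 scale (SE 0.448, limma adjusted p = 0.0506). GPX2 passed without the intensity trend, with the stricter dim limit and with averaged probe sets (limma adjusted p = 0.0454, 0.0258 and 0.0413). AKR1C1 had 5.43 and 5.49 in the Fadu subline, against 7.45 and 7.39 in the Fadu parent, and passed in the fit of the 8 Fadu and OECM1 arrays (difference 3.42, limma adjusted p = 0.0499). VIM had 5.56 and 4.87 in the Fadu subline, against 5.0 and 5.04 in its parent, so it was near the dim limit in both, and the difference of effects was 2.62 (SE 0.693, limma adjusted p = 1.00).

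PXDN had 6.97 and 7.67 in the Fadu subline, against 5.87 and 5.56 in its parent, a log2 fold change of 1.60 beside 2.28 in OECM1. CXCL2 had 4.87 and 5.01 in the Fadu subline, against 5.87 and 6.34 in its parent. CXCL8 had 8.27 and 8.72 in the Fadu subline, against 10.01 and 9.37 in its parent. The log2 fold changes in Fadu were -1.17 for CXCL2 and -1.20 for CXCL8, beside -2.04 and -1.48 in OECM1. The differences of effects were -0.87 (SE 0.669) and -0.29 (SE 0.697). Neither chemokine passed in either line, and a missed threshold does not show that the lines acted alike.

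Against the arrays labelled Detroit, limma called 75 of 8992 genes (0.834%) for a difference of effects, 53 with the larger value in OECM1 and 22 with the smaller. Of the 75, 39 did not overlap between the OECM1 groups and 13 had an unadjusted limma p under 0.05 there. The shares over all tested genes were 25.0% and 3.34%. The 75 were chosen by a difference that contains the OECM1 effect, so these counts are not separate evidence of a change in OECM1. AGR2, a protein disulfide isomerase of secretory epithelia, had 5.75 and 6.26 in the OECM1 subline, against 4.58 and 4.84 in its parent, and 3.80 and 4.28 in the subline labelled Detroit, against 8.10 and 7.97 in its parent. The effects differed by 5.29 on the log2 scale (SE 0.566, limma adjusted p = 0.00196). For S100A8, a calprotectin subunit, and KRT14, a basal keratin, the OECM1 groups overlapped, so the difference lay in the arrays labelled Detroit.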

How the data were processed

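RNA of 12 samples was hybridised to Affymetrix arrays, 1 array per sample, and the deposited values were log2 expression values of 22283 probe sets made by the authors with RMA, which subtracts background, equalises the arrays and summarises probes. RMA and Partek 7 are named per the submitters' processing notes. Low values are compressed by RMA, which understates the folds of dim genes. Arrays have no read depth, and their number limits the precision. Of the probe sets, 68 were controls, 19065 had 1 gene symbol, 1043 had several and 2107 had none in the platform annotation. Identifiers of 19053 were found in the RefSeq table (0 symbols changed). A gene took its probe set of highest mean (11963 genes), and 8992 genes with at least 2 arrays above the 40th percentile of all values were tested. Genes such as KRT6A, KRT17 and TP63 were not analysed here. Probe sets of similar genes (the AKR1C, HLA, IFITM, APOBEC3, GOLGA8 and CXCL families) can share signal. Promoter sequences came from RefSeq, GRCh38.p14.

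The 6 group means were estimated from the 12 arrays in limma 3.58.1 (R 4.3.3), with eBayes following the trend of variance with intensity, Benjamini-Hochberg adjustment over 8992 genes and a threshold of 0.05. The steps were tested on simulated data. Tables and figures were made with Python 3.11.15, pandas 2.3.3 and matplotlib 3.10.9. Genes named were the 15 with the widest gap in each direction, the 3 markers, up to 4 members without overlap of each of 27 lists (568 of 621 entries on the array) or 2 of highest mean where none qualified, and the 6 largest called differences between lines. Further genes were named for a low count or a position and are marked as chosen after their values were seen, and list members given only with a log2 fold change were also picked with values known. The members and lists were chosen with earlier results of these data known. Alternatives covered the arrays fitted, trend, weights, replicate block, dim limit, probe sets, scaling, ACTB ratio and each array left out.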

Additional observations from a re-analysis of the deposited data

Results flagged for a closer look

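The following values differed between lines by a test of the difference itself (limma, adjusted over all tested genes), as the OECM1 effect minus the effect in the arrays labelled Detroit on the log2 scale. They were 7.59 for S100A8, 5.86 for PLAT, 5.46 for TGFBI, 5.37 for EFEMP1, 5.29 for AGR2 and 2.70 for GPX2. For KRT14, KLK5 and KLK10 they were -6.94, -4.36 and -3.91. In OECM1 itself the log2 fold changes of S100A8, KRT14 and EFEMP1 were -0.00069, -0.47 and 1.14 with overlapping groups. Without overlap, PLAT had 0.84, TGFBI 0.84, AGR2 1.29, GPX2 0.66, KLK5 0.44 and KLK10 -0.39. For each of these genes the effect in the arrays labelled Detroit was larger in size than that in OECM1. Every one of the differences between lines rests on arrays whose Detroit label was not settled. Groups of 2 arrays were too small to be screened for single far samples.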

How the results depend on the processing

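The count of genes called in OECM1 was 0 under each alternative that kept all 4 arrays, and 0 to 6 with 1 array left out (2 without subline replicate 1, 6 without parent replicate 1). A group left with 1 array was assumed to vary like the others. Genes without overlap numbered 2252, 1816 to 2967 under other filters, probe sets and scalings, and 4343 to 6570 with 1 array left out, since fewer arrays overlap less. For the OECM1 minus Fadu effect the count of 0 was 1 with the 8 Fadu and OECM1 arrays, without the trend, with the 60th percentile limit and with averaged probe sets, and 0 with any 1 OECM1 array left out. For the OECM1 minus Detroit effect the count of 75 was 38 with array weights, 141 with the ACTB ratio as a covariate and 37 to 86 with 1 array left out. The cause was not tested.

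Deviations of same-numbered OECM1 arrays correlated at r = -0.40, so the numbers were not taken to pair the samples. With the replicate number as a block, 0 genes were called in OECM1, 0 against Fadu and 34 against Detroit. With the crossed pairing, chosen after seeing the data, the counts were 0, 0 and 45.

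Of the 132 named genes, 8 changed sign in at least 1 setting, and the groups overlapped for each of these 8. Most named genes were chosen for not overlapping. For such a gene, leaving out 1 array cannot change the sign, so an unchanged sign there is no test. With 1 array left out, the log2 fold changes ran from -0.39 to 0.98 for HSPA5, from -0.16 to 1.46 for ATF4, from -0.27 to 0.39 for COL1A1, from -0.51 to 0.19 for PDGFRA and from -0.21 to 0.21 for S100A8. They ran from -0.99 to 0.050 for KRT14, from -0.19 to 2.47 for EFEMP1 and from -1.02 to 0.12 for CXCL3. COL1A1 had -0.019 with the ACTB ratio, and S100A8 had 0.056 with averaged probe sets and 0.000985 with centred arrays. None of these was called.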
